A study of Mus musculus with 2 samples.

Results

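The proteasome subunit genes described here are 34 mouse genes named Psm, taken from both gene tables by symbol and identifier, out of 43346 genes measured. They fall into 7 outer ring and 7 constitutive inner ring genes of the core particle, 3 immune catalytic genes, and 6 ATPase and 11 non-ATPase genes of the regulatory cap. Their poly(A) transcripts were measured by RNA-seq in brain tissue from 1 male of the inbred laboratory strain C57BL/6J, adult at 10 weeks of age, in technical replicates 2 and 1 of the same biological sample. Replicate 2 was made in a later year than the publication named by the labels, there was no treatment, and a kit for lipid-rich tissue was used for both. Since both libraries come from 1 animal, differences between mice are not part of their spread, and p-values measure counting error between these libraries only.

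The proteasome is the protease that degrades ubiquitin-tagged proteins. Its core particle is a barrel of stacked rings, in which outer ring subunits gate the entrance and the inner rings carry the active sites of Psmb5, Psmb6 and Psmb7. A cap of ATPases and non-ATPase subunits recognises, unfolds and feeds in the substrate, and interferon can exchange the active subunits for Psmb8, Psmb9 and Psmb10, which favour peptides for antigen presentation. In neurons the proteasome takes part in synaptic protein turnover, and the constitutive subunits are needed in fixed proportions in each particle.

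The gene tables summed to 17828479 counts for replicate 2 and to 18302506 for replicate 1, and 14780 and 11608 genes in those libraries reached 1 TPM, a level per transcript length scaled to a fixed total. Markers of neurons summed to 3773 TPM in replicate 2 and 4000 TPM in replicate 1, those of astrocytes to 868 and 809, of oligodendrocytes to 1913 and 1252, of microglia to 243 and 187, and of endothelial cells to 84.0 and 17.9. The neuron sum was mostly Snap25, with 2764 TPM in replicate 2 and 3457 TPM in replicate 1, and the median log2 ratio of the 4 neuron markers was 1.62. Blood leukocyte markers summed to 17.2 TPM in replicate 2 and 13.7 TPM in replicate 1, with Cd3e and Cd8a at 0 counts in both. In tissue RNA, fewer cells of a type and less RNA per cell cannot be told apart. Both libraries come from the same biological sample, and what sets these sums apart between them was not tested. The median log2 ratio of TPM + 1, replicate 2 over replicate 1, was 0.88 over the 14229 genes with a mean of at least 1 TPM, and every TPM ratio given here is to be read against that shift.

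The constitutive core genes were measured at nearly even levels in replicate 2 and at widely uneven levels in replicate 1. In replicate 2 all 14 lay between 126 and 241 TPM, and all 14 were within 2-fold of their median of 188 TPM. In replicate 1 the same genes lay between 2.73 and 274 TPM, and 7 of 14 were within 2-fold of their median of 73.4 TPM. The SD of log2(TPM + 1) across these 14 genes was 0.33 in replicate 2 and 1.89 in replicate 1. Over the 31 constitutive genes of core and cap that SD was 0.58 in replicate 2 and 1.65 in replicate 1. The range of these 31 genes in replicate 2, 43.6 to 241 TPM, is wider than that of the core. Over the 2934 genes within it the SD was 0.63 in replicate 2, where they had been chosen, and 2.08 in replicate 1. The 17 cap genes had a median of 109 TPM in replicate 2 and 45.01 TPM in replicate 1, which is 57.9% of the core median in replicate 2 and 61.3% in replicate 1. Across the 31 constitutive genes, 30 in replicate 2 and 12 in replicate 1 were within 2-fold of the library's median, and Spearman's rho between the TPM of the libraries was 0.08. Together the 34 genes held 0.457% of all TPM in replicate 2 and 0.233% in replicate 1.

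**Figure D1:**
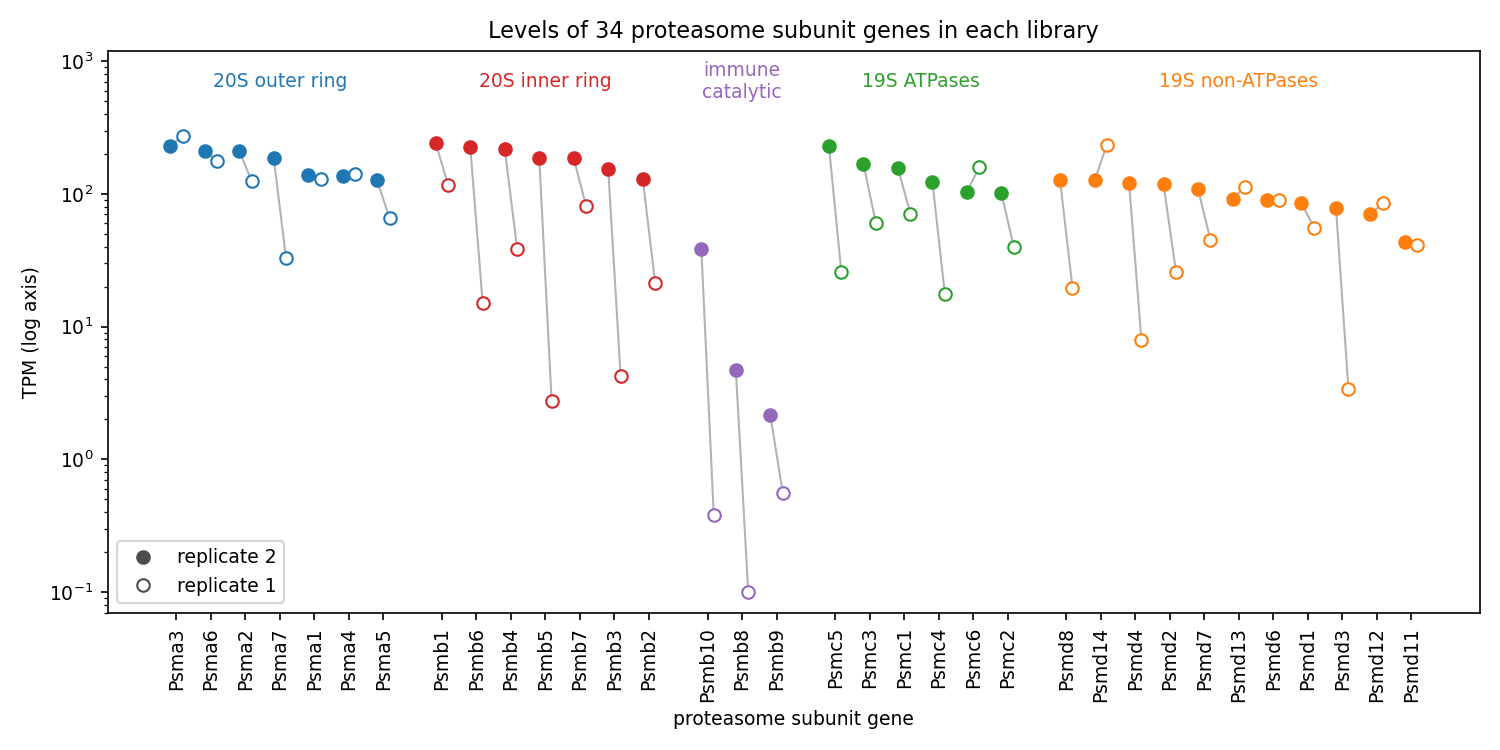
TPM of each of the 34 proteasome subunit genes (log axis) in replicate 2 (filled, left) and replicate 1 (open, right), by class (20S, core particle; 19S, cap), with a grey line joining the 2 libraries of a gene. Core genes in replicate 2 sit between 126 and 241 TPM, while in replicate 1 they reach down to 2.73 TPM for Psmb5.

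Beyond counting error and at 2-fold or more, 16 of the 34 genes were higher and 6 lower in replicate 2, and 12 did not pass. The test was a two-sided exact binomial test on rounded counts with library sizes scaled by TMM, adjusted by Benjamini-Hochberg over 16320 genes. Over all those genes 58.5% passed, 34.5% as higher and 24% as lower in replicate 2. All 34 members had enough counts to be tested. By class, 1 outer ring gene was higher and 2 lower of 7, 5 inner ring genes higher and 0 lower of 7, all 3 immune genes higher, 3 ATPases higher and 1 lower of 6, and 4 non-ATPases higher and 3 lower of 11. The differences between classes were not tested. Count ratios given below are replicate 2 over replicate 1 after TMM scaling, with exact counting intervals. Each side is 1 library, so the test compares these libraries, has no replicate check and says nothing of a condition. Of the 34 genes, 27 had a higher TPM in replicate 2, a share that was not computed over all genes. All 6 called lower had a lower TPM there. For Psma4 and Psmd6 the counting interval of the TPM ratio spanned 1, at 0.893 to 1.02 and 0.923 to 1.08.

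The ratios of the subunits followed the GC content of their transcripts. The coding sequences below are from the constitutive genes at both ends of the ratio: Psmb5 and Psmb3 had the highest log2 ratio of TPM + 1, 5.66 and 4.88, and Psmd14 and Psmc6 the lowest, -0.89 and -0.62. Each run is the first 150 coding bases from the start codon, 5′ to 3′, read from GENCODE M21 transcripts on GRCm38, with G and C in capitals.
Psmb5: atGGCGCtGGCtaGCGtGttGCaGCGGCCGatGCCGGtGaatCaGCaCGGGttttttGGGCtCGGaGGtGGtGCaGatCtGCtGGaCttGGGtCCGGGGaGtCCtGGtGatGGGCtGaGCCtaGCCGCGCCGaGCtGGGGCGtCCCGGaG
Psmb3: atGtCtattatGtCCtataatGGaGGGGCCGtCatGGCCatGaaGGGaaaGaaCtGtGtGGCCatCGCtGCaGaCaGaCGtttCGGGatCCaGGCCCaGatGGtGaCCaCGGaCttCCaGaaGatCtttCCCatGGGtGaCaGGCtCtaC
Psmd14: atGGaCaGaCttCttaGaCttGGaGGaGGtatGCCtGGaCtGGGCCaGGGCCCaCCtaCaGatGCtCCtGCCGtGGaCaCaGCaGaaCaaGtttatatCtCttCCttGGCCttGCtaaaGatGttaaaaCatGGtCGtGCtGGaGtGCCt
Psmc6: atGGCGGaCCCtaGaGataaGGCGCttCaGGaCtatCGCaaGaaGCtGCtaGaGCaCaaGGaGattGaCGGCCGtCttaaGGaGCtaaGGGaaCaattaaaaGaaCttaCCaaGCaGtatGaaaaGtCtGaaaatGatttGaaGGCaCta
The run of Psmb5 lies at chr14:54617842-54617991 on the minus strand, in 1 exon, and holds 66.7% G or C. That of Psmb3, at chr11:97703488-97703934 on the plus strand over 2 exons, holds 53.3%. Psmd14 holds 51.3% at chr2:61722714-61761004, plus strand, over 3 exons, and Psmc6 44.7% at chr14:45329848-45330894, plus strand, over 2 exons. The runs of Psmb3 and Psmd14, from opposite ends of the ratio, are thus close in G and C. At the third base of the codons over the whole coding sequence, G or C stood in 66.3% of codons in Psmb5 and 72.7% in Psmb3, against 41.0% in Psmd14 and 36.0% in Psmc6.

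Over the 31 constitutive genes Spearman's rho between the log2 ratio and the GC content of the gene's transcripts was 0.87, against 0.89 over 14177 genes of all kinds. With the GC content of the coding sequence rho was also 0.87, and with that of the third codon bases it was 0.79. The GC content of the same genes had a rho of 0.05 with the TPM of replicate 2 and of -0.89 with the TPM of replicate 1. These points share their libraries, so the values are a description. Of 7 members with a GC content from 35 to 45%, 4 were called lower in replicate 2 and 0 higher, and their median log2 ratio was -0.26. Of 10 members from 45 to 50%, 0 were higher and 2 lower, with a median of 0.77. From 50 to 55% 12 of 13 were higher and 0 lower, with a median of 2.55, and from 55 to 60% all 4 were higher, with a median of 4.50. The medians over all genes in those bands were -0.38, 0.41, 1.60 and 3.03. The share of all genes called in each band was not computed, so the counts of members called by band are a description only.

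**Figure D2:**
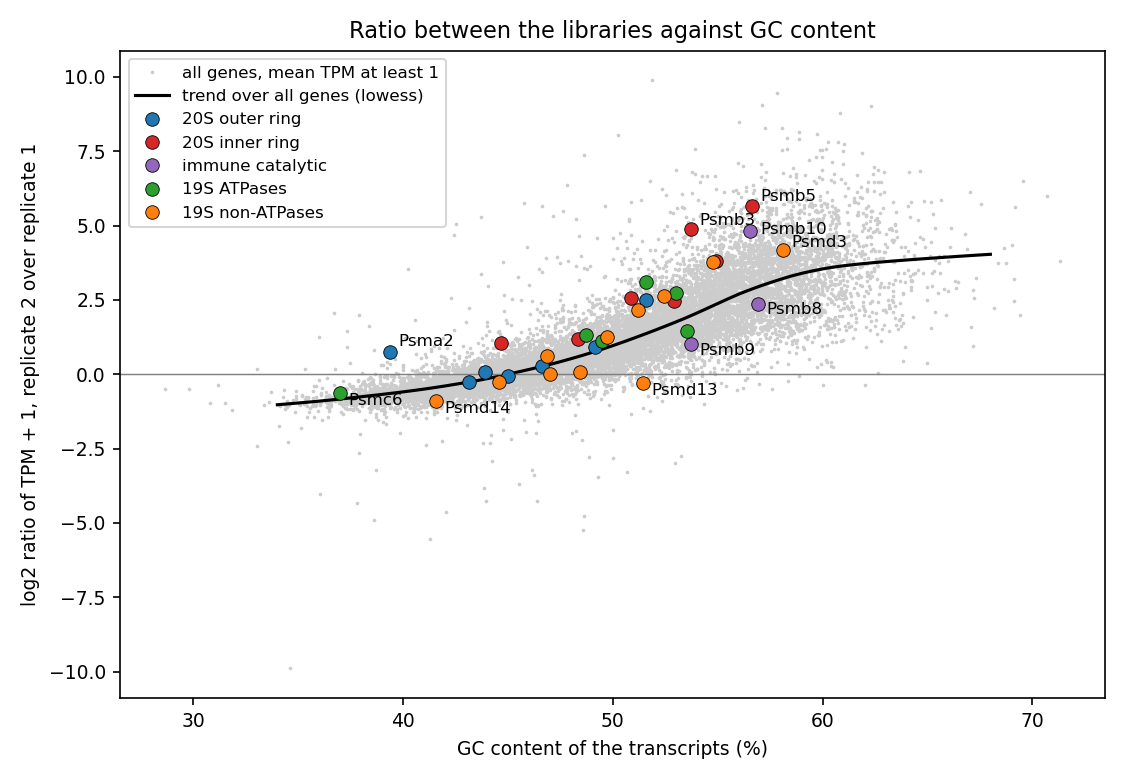
Log2 ratio of TPM + 1 in replicate 2 over replicate 1 against the GC content of each gene's transcripts (%), for all genes with a mean of at least 1 TPM (grey), their smooth trend (black line) and the 34 proteasome genes (coloured by class). The members climb with GC content from Psmc6 at -0.62 to Psmb5 at 5.66, and Psma2 lies above and Psmd13 below the trend.

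With the trend of all genes on GC content taken out of the count ratios, 11 members were higher and 0 lower in replicate 2, beside 10.4% and 9.4% of all genes. Of the 16 members called higher before, 9 were among the 11. The 11 were Psma2, Psmb1, Psmb2, Psmb3, Psmb4, Psmb5, Psmb10, Psmc3, Psmc4, Psmc5 and Psmd3. By log2 ratio of TPM + 1, 11 members, not all the same, lay more than 1 above the GC trend and 1 as far below. Of all genes, 10.31% lay that far above and 7.43% below. Of the 2557 genes in the mean TPM range of the constitutive members, 17.01% lay that far above. Among the members called on counts, Psmc3 lay at -0.45 in TPM and Psmb4, Psmc4 and Psmd3 at 0.72, 0.97 and 0.95. The others lay above 1. The median effective length, the part of a transcript a fragment can start in, was 1107 bases over members and 2344 bases over genes with a mean of at least 1 TPM. The log2 TPM ratio left after the GC trend had a rho with effective length of -0.41 over members and -0.18 over all genes. With a trend on length removed in place of GC, 12 members were higher and 11 lower, beside 29.1% and 31.2% of all genes. The part of GC content and length in each ratio was not tested.

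The outer ring genes, which gate the core, had a median of 188 TPM in replicate 2 and 130 TPM in replicate 1, and their median log2 ratio of 0.26 was the lowest of the classes and below the 0.88 of all genes. Psma3, summed over its coding and other transcripts, had the highest mean of all members, 252 ± 31.7 TPM (SD over the 2 technical libraries of 1 mouse). It had 229 TPM (2217 counts) in replicate 2 and 274 TPM (3387 counts) in replicate 1. It was called lower in replicate 2, at a count ratio of 0.440 (95% counting interval 0.417 to 0.465). Psma4, at 136 TPM in replicate 2 and 142 TPM in replicate 1, was the other outer ring gene called lower. The scale matters for both: with library totals in place of TMM neither was called. Psma5 had the lowest mean of the ring, at 126 TPM in replicate 2 and 65.8 TPM in replicate 1, and did not pass. Psma7 had 188 TPM (1476 counts) in replicate 2 and 32.8 TPM (324 counts) in replicate 1, a count ratio of 3.06 (2.71 to 3.47, adjusted p = 1.39e-90, exact binomial test). It was the only outer ring gene called higher, and its GC content of 51.6% was the highest of the ring. The remaining 3 did not pass: Psma1 had 138 TPM in replicate 2 and 130 TPM in replicate 1, Psma2 212 and 126 TPM, and Psma6 212 and 177 TPM.

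The inner ring genes, which hold the active sites, had a median of 188 TPM in replicate 2 and 21.5 TPM in replicate 1. All 7 had a log2 ratio of TPM + 1 above 1, while 49.3% of all genes had one of at least 1 in either direction, up or down. Of the 7, 5 passed the test, and the class had a median log2 ratio of 2.55 and a median GC content of 52.9%. Psmb5, the chymotrypsin-like subunit (ENSMUSG00000022193.6, chromosome 14, 54614119 to 54618022, minus strand, GRCm38), had 188 TPM from 1395 counts in replicate 2 and 2.73 TPM from 27 counts in replicate 1. Its count ratio was 34.7 (23.8 to 52.9, adjusted p = 9.21e-265, exact binomial test). Psmb5 thus stood at the core median in replicate 2 and at the lowest level of any constitutive member in replicate 1.

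Psmb6, the caspase-like subunit (ENSMUSG00000018286.6, chromosome 11, 70525367 to 70527858, plus strand), had 227 TPM and 1483 counts in replicate 2 and 15.1 TPM and 119 counts in replicate 1, a count ratio of 8.38 (6.95 to 10.2, adjusted p = 4.22e-195, exact binomial test). Psmb7, the trypsin-like subunit (ENSMUSG00000026750.5, chromosome 2, 38588036 to 38644087, minus strand), had 185 TPM and 1955 counts in replicate 2 and 81.0 TPM and 1039 counts in replicate 1, and its count ratio of 1.27 (1.17 to 1.37) did not reach 2-fold. The 3 constitutive active sites thus stood within 185 to 227 TPM in replicate 2 and spread over 2.73 to 81.0 TPM in replicate 1. Psmb7 also had the lowest GC content of the 3, 48.3%, against 54.9% for Psmb6 and 56.6% for Psmb5. Of the inner ring genes without an active site, Psmb1 had the highest mean and the lowest ratio, with 241 TPM in replicate 2 and 116 TPM in replicate 1, and did not pass. Psmb2 had the lowest mean, with 131 TPM in replicate 2 and 21.5 TPM in replicate 1, and was called higher at a count ratio of 3.67 (3.12 to 4.34). Psmb3 had 153.5 TPM (970 counts) in replicate 2 and 4.25 TPM (37 counts) in replicate 1, a count ratio of 17.6 (12.7 to 25.2). Psmb4 had 217 TPM (1955 counts) in replicate 2 and 38.7 TPM (218 counts) in replicate 1 and was called higher as well.

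The immune catalytic genes stood below all constitutive members in both libraries. The closest in replicate 2 was Psmb10, at 38.2 TPM beside 43.6 TPM for the cap gene Psmd11. Psmb8, the immune counterpart of Psmb5 (ENSMUSG00000024338.10, chromosome 17, 34197721 to 34201454, plus strand), had 4.71 TPM from 44 counts in replicate 2 and 0.10 TPM from 2 counts in replicate 1, a count ratio of 14.8 (3.86 to 126, adjusted p = 9.17e-08, exact binomial test). Psmb9, that of Psmb6 (ENSMUSG00000096727.1, chromosome 17, 34181987 to 34187764, minus strand), had 2.15 TPM from 25 counts in replicate 2 and 0.56 TPM from 2 counts in replicate 1, a count ratio of 8.41 (2.10 to 73.2, adjusted p = 0.00035, exact binomial test). Psmb10, that of Psmb7 (ENSMUSG00000031897.8, chromosome 8, 105935735 to 105938444, minus strand), had 38.2 TPM from 449 counts in replicate 2 and 0.38 TPM from 6 counts in replicate 1, a count ratio of 50.3 (22.9 to 138, adjusted p = 1.75e-89, exact binomial test). Psmb10 was thus the most abundant immune subunit of replicate 2, while all 3 were under 1 TPM in replicate 1.

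Summed, the immune subunits held 45.1 TPM in replicate 2 and 1.04 TPM in replicate 1, against 600 and 98.9 TPM for Psmb5, Psmb6 and Psmb7 in the same libraries. The immune sum was 7.51% of the constitutive sum in replicate 2 (95% counting interval 6.85 to 8.23%) and 1.05% in replicate 1 (0.503 to 1.94%), and 6.60% over the mean of both libraries. By pair, Psmb8 was at 2.50% of Psmb5 in replicate 2 and 3.66% in replicate 1, with intervals of 1.81 to 3.38% and 0.422 to 14.6% that overlap. Psmb9 was at 0.948% of Psmb6 in replicate 2 and 3.71% in replicate 1, with intervals of 0.611 to 1.40% and 0.444 to 13.7% that also overlap. Psmb10 was at 20.6% of Psmb7 in replicate 2 and 0.469% in replicate 1, with intervals of 18.6 to 22.9% and 0.172 to 1.02% that do not. The members of that last pair differ most in GC content, 56.5% for Psmb10 and 48.3% for Psmb7. Markers of microglia, which can express these genes, were detected in both libraries, and their part in these levels was not tested.

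**Figure D3:**
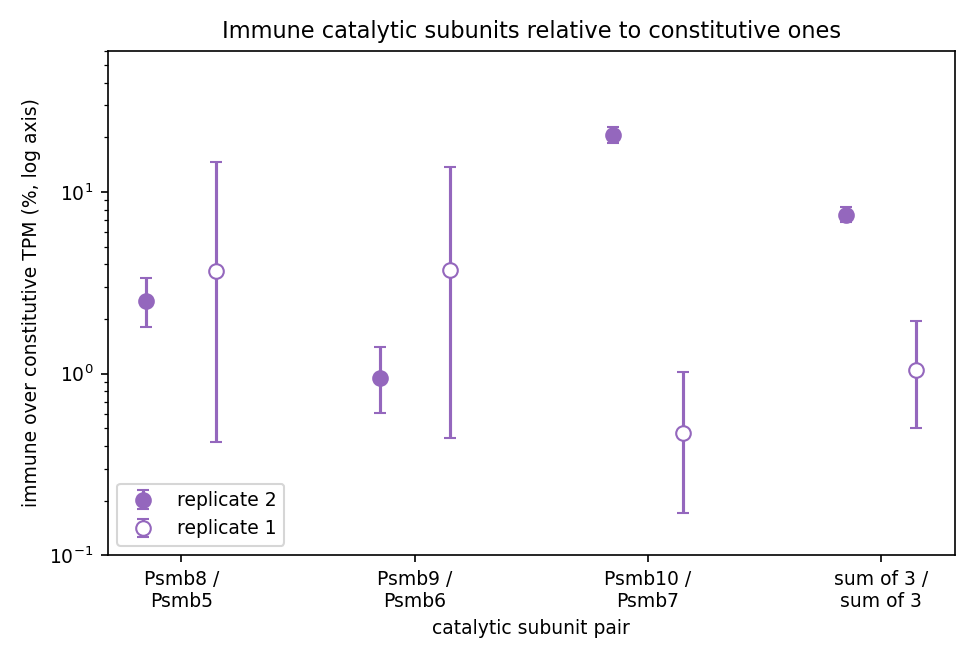
TPM of each immune catalytic subunit as a percent of its constitutive counterpart (log axis), and of the summed TPM of all 3, in replicate 2 (filled, left) and replicate 1 (open, right), with 95% counting intervals. Psmb10 over Psmb7 is at 20.6% in replicate 2 and 0.469% in replicate 1, while the intervals of the other pairs overlap between the libraries.

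The cap ATPases, which unfold the substrate, had a median of 139 TPM in replicate 2 and 50.005 TPM in replicate 1 and a median log2 ratio of 1.40. Psmc5 had the highest log2 ratio of TPM + 1 of the class, 3.11, with 229 TPM (2801 counts) in replicate 2 and 25.6 TPM (418 counts) in replicate 1, a count ratio of 4.51 (4.06 to 5.01, adjusted p = 2.59e-252, exact binomial test). In counts the ratios of Psmc3, 7.14, and Psmc4, 5.07, were higher. Psmc6 had the highest mean and the lowest ratio, with 104 TPM (1550 counts) in replicate 2 and 160 TPM (3173 counts) in replicate 1. It was called lower in replicate 2 at a count ratio of 0.328 (0.309 to 0.349), and its GC content of 37.0% was the lowest of all members. Psmc4 had the lowest mean, with 122.5 TPM in replicate 2 and 17.6 TPM in replicate 1, and was called higher. Psmc1, at 156 TPM in replicate 2 and 71.2 TPM in replicate 1, and Psmc2, at 100.93 and 39.87 TPM, did not reach 2-fold in counts. Psmc3, called higher, is described with its transcripts. The 6 ATPases form 1 ring in equal numbers, and their highest level was 2.27 times the lowest in replicate 2 and 9.07 times in replicate 1.

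The non-ATPase cap genes had a median of 91.1 TPM in replicate 2 and 45.01 TPM in replicate 1 and a median log2 ratio of 0.60. Psmd14, the deubiquitinase that removes ubiquitin chains from the substrate, had the highest mean and the lowest log2 ratio of TPM + 1, with 126 TPM (1677 counts) in replicate 2 and 236 TPM (2704 counts) in replicate 1. Its count ratio was 0.417 (0.392 to 0.443, adjusted p = 9.21e-180, exact binomial test), while the lowest count ratio of the class was that of Psmd12, 0.393. Psmd3, a scaffold of the cap's lid, had the lowest mean and the highest ratio, with 78.3 TPM (1696 counts) in replicate 2 and 3.41 TPM (39 counts) in replicate 1, a count ratio of 29.2 (21.3 to 41.3). Psmd3 had the highest GC content of all members, 58.1%. Psmd4, a ubiquitin receptor, had 122 TPM in replicate 2 and 7.87 TPM in replicate 1 and was called higher, as were the scaffold Psmd2, with 118 TPM in replicate 2 and 26.0 TPM in replicate 1, and the lid subunit Psmd8, with 127 and 19.6 TPM. The scaffold Psmd1 had 85.2 TPM in replicate 2 and 55.8 TPM in replicate 1, the lid subunit Psmd7 109 and 45.01 TPM, and neither passed, nor did the lid subunits Psmd11 and Psmd13. The lid subunits Psmd6, with 90.4 TPM in replicate 2 and 90.6 TPM in replicate 1, and Psmd12, with 70.3 and 84.8 TPM, were called lower on their counts. Psmd6 stood at the edge of the threshold, with a count ratio of 0.4999 (0.462 to 0.540). In replicate 2 the median of the 9 genes of the cap's base, 122 TPM, was above that of the 8 lid genes, 90.8 TPM, and in replicate 1 the order was turned, with 39.9 and 64.9 TPM.

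Within the genes, near-full-length coding transcripts, those whose coding part reaches at least 90% of the longest one annotated, held a smaller share of many members in replicate 1. Their share of the gene's TPM was at least 10 percentage points higher in replicate 2 for 13 of 34 members and as much lower for 0, beside 25.9% and 11.2% of 12851 genes. The share was under 50% for 2 members in replicate 2 and 11 in replicate 1. Those 2, Psma3 and Psmd8, were low in both libraries. For Psmd8 all TPM lay on coding transcripts, mostly Psmd8-202, whose coding part is under 90% of the longest. For Psma3 coding transcripts held 8.78% of the TPM in replicate 2 and 22.1% in replicate 1. The rest lay on transcripts annotated for nonsense-mediated decay or with a retained intron. Its near-full-length coding level was 15.1 TPM in replicate 2 and 15.8 TPM in replicate 1. Counting these transcripts alone, 27 of the 31 constitutive genes in replicate 2 and 7 in replicate 1 were within 2-fold of the median, and the rho of their log2 ratio with GC content was 0.93. The most abundant transcript differed between the libraries for 12 of 34 members. That share was not computed over all genes, so the count is a description only. Among the 12, Psmb8 and Psmb9 had 2 counts each in replicate 1.

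**Figure D4:**
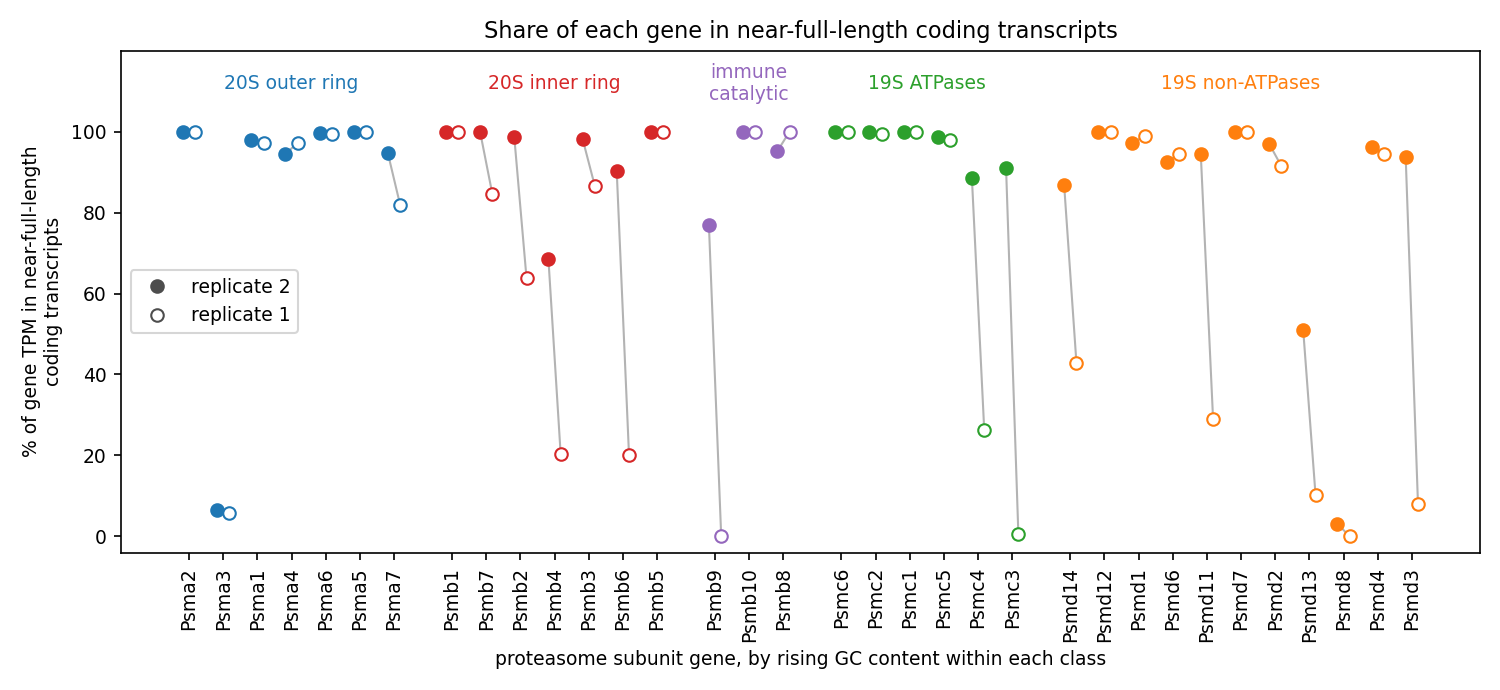
Share of each gene's TPM (%) in near-full-length coding transcripts in replicate 2 (filled, left) and replicate 1 (open, right), by class and ordered by GC content within each class. For 13 of 34 genes the share is at least 10 percentage points higher in replicate 2, among them Psmc3 at 90.9% in replicate 2 and 0.499% in replicate 1.

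By the deposited shares, the transcripts moved most for Psmb9, Psmd13 and Psmc3. By the posterior mean shares the order changed, with 86.0 percentage points for Psmc3 and 85.9 for Psmd3, against 55.8 for Psmd13 and 42.9 for Psmb9. For Psmb9 they moved by 100 percentage points, on the 2 counts of replicate 1, which lay on a transcript of 433 bases, while Psmb9-204, of 1351 bases, held 76.8% in replicate 2. For Psmd13 they moved by 96.1 points: a coding transcript of 1989 bases had 46.4 TPM in replicate 2 and 0.89 TPM in replicate 1. In replicate 1 a transcript of 123 bases took 47.5 TPM on 1 count, and the deposited intervals of the gene's TPM were wide, 84.8 to 252 in replicate 2 and 62.1 to 306 in replicate 1. The gene TPM of Psmd13, 91.1 in replicate 2 and 113 in replicate 1, thus rests on that estimate, and its counts, 1343 in replicate 2 and 590 in replicate 1, run the other way. For Psmc3 they moved by 91.4 points: the coding Psmc3-202, of 1636 bases, had 153 TPM in replicate 2 and 0.30 TPM in replicate 1, where 71.1% of the TPM lay on Psmc3-204, a noncoding transcript of 403 bases. The gene's effective length was 1359 bases in replicate 2 and 271 bases in replicate 1, so its TPM, 169 in replicate 2 and 60.1 in replicate 1, differed less than its counts, 2485 and 234. For Psmb6, Psmb6-202, a transcript with a retained intron, held 6.87% of its TPM in replicate 2 and 62.2% in replicate 1. For Psmd14 the coding transcript had a log2 ratio of TPM + 1 of 0.12, below the 0.88 of all genes. Its counts were lower in replicate 2, 1609 against 1971 in replicate 1. In TPM the lower gene level of replicate 2 lay in the noncoding Psmd14-202, at 16.1 TPM in replicate 2 and 129 TPM in replicate 1.

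Reads of near-identical copies can be assigned to the wrong gene. Of the 34 members, 13 have a transcript of another gene that does not overlap them and is at least 90% identical over at least 200 bases. These are 31 such genes, of which 11, similar to 6 of the members, are not in the gene tables used here, so their reads were not measured. For 11 of the 12 members with a measured copy, the measured ones held at most 1.31% of the member's counts. The exception was Psmd11, whose copies, mostly A730017L22Rik, held counts equal to 20.02% of its own in replicate 2 and 22.2% in replicate 1, so its level, 43.6 TPM in replicate 2 and 41.5 TPM in replicate 1, is uncertain. Exons of 10 members overlap another gene, 2 of them on the same strand. Among the overlapping genes on the other strand, Sirt3 (beside Psmd13) had 1112 counts in replicate 2, against 20 in replicate 1, Nek6 (beside Psmb7) 451 and 242, Slc39a13 (beside Psmc3) 355 and 18, and Tap1 (beside Psmb9) 44 and 2. No label or file header used here says whether strand was used in counting, so reads of such pairs cannot be told apart.

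Of 47 other genes of the pathway, 19 were higher and 8 lower in replicate 2, 18 did not pass and 2 had too few counts, against the 34.5% and 24% of all genes. Among the ubiquitin genes 4 of 7 were higher and 2 lower. Ubb, a polyubiquitin gene, was the most abundant, with 2248 TPM in replicate 2 and 55.6 TPM in replicate 1. The ubiquitin-conjugating enzyme gene Ube2d3 had the lowest log2 ratio of all these genes, -1.08, with 242 TPM in replicate 2 and 511 TPM in replicate 1. Ubb has a GC content of 54.1% and Ube2d3 of 40.9%.

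Of the genes that act beside the particle, 2 of 5 core assembly genes were higher. The counts of calls in these small lists stand beside 34.5% higher and 24% lower over all genes. The most abundant of the 5 was Pomp, the maturation chaperone of the core, called higher with 259 TPM in replicate 2 and 59.2 TPM in replicate 1. Of the cap assembly genes 1 of 3 was higher, and the most abundant, Psmd5, had 37.0 TPM in replicate 2 and 25.9 TPM in replicate 1 and did not pass. Of the other cap subunits 1 of 5 was higher and 2 lower, and the deubiquitinase Usp14 had 117 TPM in replicate 2 and 195 TPM in replicate 1 and was called lower. Of the activators and the inhibitor 3 of 5 were higher and 1 lower, and Psme3, the nuclear activator, had 73.3 TPM in replicate 2 and 80.0 TPM in replicate 1 and did not pass. Of the shuttle factors 1 of 5 tested was higher and 1 lower, Rad23b. This gene, the most abundant of them, had 99.2 TPM in replicate 2 and 96.4 TPM in replicate 1, and 3395 and 5002 counts, on which the call rests. The tissue-restricted core genes were near 0: Psma8, of the testis, had 6 counts in replicate 2, against 13 in replicate 1, while Psmb11, of the thymus, had 5 counts in replicate 2 and 0 in replicate 1, which allows up to 3.

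Of 9 MHC class I and interferon genes, which act with the immune subunits, 6 were higher and 0 lower, beside 34.5% and 24% of all genes. B2m, the light chain of MHC class I and the most abundant, had 181 TPM in replicate 2 and 173 TPM in replicate 1 and did not pass. The peptide transporter genes Tap1 and Tap2 had 44 and 97 counts in replicate 2, and 2 and 0 in replicate 1. The median GC content of these 9 genes was 55.2%. Their median log2 ratio of TPM + 1 was 2.15, beside 3.03 over all genes with a GC content from 55 to 60%.

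Of the genes that control proteasome transcription 1 of 5 was higher and 1 lower, beside 34.5% and 24% of all genes. Vcp, the ATPase that extracts ubiquitinated proteins, was the most abundant, with 140 TPM in replicate 2 and 49.0 TPM in replicate 1, and did not pass. Nfe2l1, the factor that raises proteasome genes when the protease is inhibited, had 154 TPM (5756 counts) in replicate 2 and 22.1 TPM (1010 counts) in replicate 1 and was the gene called higher. It binds antioxidant response elements, so the 250 bases before the RefSeq start (GRCm38.p6) were searched on both strands in the 28 members with an entry. The element's core, TGACNNNGC, was found in 4, Psmb5, Psmb6, Psmc6 and Psmd12, which is 14.3% against 10.2% of 32851 promoters. The ETS motif CCGGAAG was found in 9 (32.1% against 6.91%), the GC box GGGCGG in 15 (53.6% against 32.7%) and the CCAAT box in 11 (39.3% against 33.8%). The interferon-gamma-activated site TTCNNNGAA was found in 1, Psmb8 (3.57% against 7.02%), and the nuclear respiratory factor motif CGCATGCG in 1, Psma2 (3.57% against 1.55%). The percents of members count genes with a match in any entry, 2 of which have more than 1 entry, while those of all promoters count entries. The promoter of Psmb5, the member of highest log2 ratio of TPM + 1, is shown with its antioxidant core in capitals, at chr14:54617996-54618245 on the minus strand, 5′ to 3′.
Psmb5 promoter: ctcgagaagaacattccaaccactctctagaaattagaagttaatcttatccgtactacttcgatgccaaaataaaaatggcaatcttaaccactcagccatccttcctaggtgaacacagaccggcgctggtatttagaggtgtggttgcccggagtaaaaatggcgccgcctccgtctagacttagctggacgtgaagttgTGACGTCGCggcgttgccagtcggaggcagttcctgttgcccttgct
A match is a description of these letters. The 4 members with the core had log2 ratios of TPM + 1 of 5.66 for Psmb5, 3.82 for Psmb6, -0.62 for Psmc6 and -0.27 for Psmd12, and so lay at both ends of the range.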

How the data were processed

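Expected counts were deposited by the authors per gene and transcript as estimates that need not be whole. TPM and FPKM, levels per length, were deposited by the authors beside them, as were the percent of a gene held by each transcript and posterior mean versions, per the file headers. The deposited listings name mm10 and GENCODE M4, and neither quantifier nor aligner is stated there. Rows with no Ensembl gene identifier held at most 1 count in a library and were left out. Deposited TPM intervals are quoted for Psmd13 only.

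Symbols, positions and sequences came from GENCODE M21 (GRCm38), and a gene's GC content is the TPM-weighted mean of its transcripts. Expected counts were rounded and compared by a two-sided exact binomial test with TMM sizes (edgeR 4.0.16, R 4.3.3) for genes with at least 10 summed counts. A gene was called at an adjusted p under 0.05 and 2-fold, with 0.5 added to counts. With 1 library per side no replicate-based model (edgeR quasi-likelihood, DESeq2) could be fitted, and DESeq2 1.42.0 gave size factors only. The step was checked on simulated counts. Alternatives were library totals, DESeq2 size factors, no count or fold minimum, posterior means, other units and pseudocounts, GC and length trends removed, and each library left out. Log2 ratios of TPM + 1 understate the change of low genes. Intervals (exact Clopper-Pearson, 95%) and the floor of 3 counts, 1.68e-05% of replicate 2 and 1.64e-05% of replicate 1, cover counting error only. Trends were fitted by lowess, fraction 0.2 (statsmodels 0.14.6). Tests ran in scipy 1.17.1 under Python 3.11.15, with pandas 2.3.3, numpy 2.4.6 and, for plots, matplotlib 3.10.9. Genes given in full were the catalytic members, those of highest and lowest mean TPM and log2 ratio per class, the 3 with the largest transcript shifts, and in the pathway the most abundant of each list and the highest and lowest ratio. The others named were chosen after their values were seen. A few genes that these rules name are not reported here. The members and lists were chosen with earlier results of these data known.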

Additional observations from a re-analysis of the deposited data

How the results depend on the processing

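With DESeq2 size factors, no minimum count or posterior mean counts, the members called were the 16 higher and 6 lower ones. With library totals, which moved all ratios by 0.61 on the log2 scale, 17 members were higher and 0 lower, 84.7% of the calls over all genes were upward (TMM: 59%), and the lower pathway genes were 3. Without the fold threshold 21 members were higher and 10 lower, beside 43.6% and 39.2% of all genes, and 20 pathway genes were lower. With the length trend removed the lower ones were 11 and 13. With the GC trend removed 0 members and 4 pathway genes were lower and 10 pathway genes higher.

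With the GC trend removed, count ratios (log2) of genes called before changed sign for Psma3 (0.051), Psmc6 (0.30), Psmd14 (0.18), Uchl5 (0.022), Ngly1 (0.042), Ube2k (0.13), Adrm1 (-1.806), Psme1 (-0.7655), Tapbp (-2.028) and H2-K1 (-0.62). That list leaves out genes not called before, such as Psma2, which went from -0.23 to being called higher. TPM ratios (log2) changed sign for Psma3 (0.0040), Psmc6 (0.22), Psmb8 (-0.57), Psmb9 (-0.95) and Psmc3 (-0.45), and, among members not called, Psma6 (-0.0013) and Psmd11 (-0.54). With the length trend removed, count ratios of genes called before did for Pomp (-0.23) and Psme2 (-0.064). These follow from the trends taken out.

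The median log2 ratio of the outer ring was -0.71 on TMM-scaled CPM and -0.10 on FPKM, where that of all genes was 0.09 and 0.54. The immune median was 4.59 with a pseudocount of 0.1 and -0.57 with the GC trend removed. Near-full-length transcripts, an alternative chosen after seeing the data, gave 1.70 for the non-ATPases and 0.12 for Psmd14.

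Leaving out each library in turn, the median TPM ranged from 130.1 to 187.7 for the outer ring and from 50 to 139.2 for the ATPases, and the immune share from 1.05 to 7.51%. No paired analysis was possible because the labels give 1 group. With 27 or fewer counts in replicate 1 for Psmb5 and the immune members, their ratios are the least precise.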
